A study of Mus musculus with 6 samples.

Results

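Transcripts of 32 genes of the p53 network, the GADD45 family and growth arrest were examined in 6 stable clones of NIH3T3, an immortalized fibroblast line derived from NIH Swiss mouse embryos. The genes were chosen by name, as a list, with earlier results of these data known. They were matched by symbol to the annotation of the array's 45281 probes. Of the 32, 30 had at least 1 probe, 57 probes in all, and the transcripts of Trp53 and Fdxr were not analysed here. The control clones ΔccdB-1, ΔccdB-2 and ΔccdB-3 carried the expression vector pEF-DEST51 without its ccdB gene. The clones FEAT-3, FEAT-15 and FEAT-20 carried that vector with the coding sequence of human FEAT, a methyltransferase also known as METTL13, under the EF1 alpha promoter. For the FEAT clones, cells were kept for 7 days in 10 µg/ml blasticidin S, and colonies were picked and screened for high FEAT protein. Each sample is 1 clone on 1 one-colour Illumina bead array. A p-value therefore sets the group difference against the spread between clones, with that spread estimated in part from all probes tested. Effects of the transgene and of clone selection cannot be told apart within a clone. How the control clones were selected is not stated in the labels.

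The transcription factor p53, encoded by Trp53, is stabilised by DNA damage and other stress and switches on genes that halt the cell cycle, repair DNA or kill the cell. Its targets include Cdkn1a, which blocks cyclin-dependent kinases, and Mdm2, whose product marks p53 for degradation and so closes a negative feedback loop. The GADD45 proteins are small stress-inducible regulators that bind cell cycle and MAP kinase pathway proteins. Many of these genes answer to other inputs as well, such as FoxO factors, hypoxia and growth factor signals. NIH3T3 fibroblasts are known to have lost the Cdkn2a locus, whose ARF product restrains Mdm2.

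Levels are given as intensities of the deposited value table, in which each array was multiplied by 1 factor so that all have a mean of 680. Folds, log2 differences (FEAT minus control) and adjusted p-values come from a fit with limma to background-corrected, quantile-normalized log2 intensities of the 27169 brightest probes. In that fit an adjusted p under 0.05 counted as a call. A background limit was set on each array, between 94.2 and 109 on the scale of the value table. Of the 30 genes with a probe, 26 were tested and 25 had a probe above this limit on all 6 arrays. Cdkn1c, Btg2, Tigar and Perp were too dim to be tested, with intensities from 62.7 to 84.98 over all clones, and Ccng2 was tested but not above background on any array (76.7 to 94.3). The fibroblast label was borne out by 10 of 11 marker genes above the limit on every array, among them Vim at 21502 to 24763 and Col1a1 at 3434 to 8621, while Lum was above it on none. Of the epithelial, immune, endothelial, muscle and adipocyte markers with a probe, 1 of 6, 0 of 3, 0 of 4, 1 of 3 and 0 of 4 were above the limit on all arrays. The summed intensity of the fibroblast markers was 41912 to 43365 in the control clones and 44600.3 to 52914 in the FEAT clones, and its part in the results below was not tested. Cdkn2a was not above background on any array.

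The promoters of 6 members are shown because the results below turn on these genes: Gadd45b and Rgcc were the called ones, Gadd45a and Gadd45g are the close relatives of Gadd45b, and Cdkn1a and Mdm2 are the standard p53 targets that varied among the control clones. The sequences are RefSeq's for GRCm38.p6, 300 bases each, from 250 before to 50 after an annotated start, written 5′ to 3′ in the direction of transcription. Capitals mark every match, on either strand, to the p53 half-site consensus or to the letters TATAAA or CACGTG or GGGCGG.
Cdkn1a (chr17:29090729-29091028, plus strand): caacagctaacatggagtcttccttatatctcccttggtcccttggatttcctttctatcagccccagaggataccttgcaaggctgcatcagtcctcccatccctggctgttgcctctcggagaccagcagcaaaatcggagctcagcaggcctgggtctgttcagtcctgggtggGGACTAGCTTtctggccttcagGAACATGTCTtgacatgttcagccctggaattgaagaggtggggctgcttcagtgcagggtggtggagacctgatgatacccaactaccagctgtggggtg
Mdm2 (chr10:117710709-117711008, minus strand): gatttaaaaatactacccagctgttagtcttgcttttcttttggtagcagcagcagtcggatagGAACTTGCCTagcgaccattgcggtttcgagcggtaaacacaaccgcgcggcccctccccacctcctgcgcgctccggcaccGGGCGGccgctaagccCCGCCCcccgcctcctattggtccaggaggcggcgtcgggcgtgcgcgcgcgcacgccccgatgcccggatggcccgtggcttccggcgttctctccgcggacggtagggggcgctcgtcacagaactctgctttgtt
Gadd45a (chr6:67037358-67037657, minus strand): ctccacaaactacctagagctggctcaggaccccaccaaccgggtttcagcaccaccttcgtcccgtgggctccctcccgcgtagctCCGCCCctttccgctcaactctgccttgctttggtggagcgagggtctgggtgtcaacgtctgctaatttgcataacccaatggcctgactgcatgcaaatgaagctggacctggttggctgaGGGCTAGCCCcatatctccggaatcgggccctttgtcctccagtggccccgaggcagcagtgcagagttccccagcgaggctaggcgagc
Gadd45b (chr10:80929841-80930140, plus strand): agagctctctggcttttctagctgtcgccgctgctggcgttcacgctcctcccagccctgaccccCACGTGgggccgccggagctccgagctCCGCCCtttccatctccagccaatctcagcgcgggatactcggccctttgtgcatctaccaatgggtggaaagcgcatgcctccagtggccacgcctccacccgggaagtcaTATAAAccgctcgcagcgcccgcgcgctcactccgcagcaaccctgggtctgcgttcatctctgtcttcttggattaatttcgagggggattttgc
Gadd45g (chr13:51846425-51846724, plus strand): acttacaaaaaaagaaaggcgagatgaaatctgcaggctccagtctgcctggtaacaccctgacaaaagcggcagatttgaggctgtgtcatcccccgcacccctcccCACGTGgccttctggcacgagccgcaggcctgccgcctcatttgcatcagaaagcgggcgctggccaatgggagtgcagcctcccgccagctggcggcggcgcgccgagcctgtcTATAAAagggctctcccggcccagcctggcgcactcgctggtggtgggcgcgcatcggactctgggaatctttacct
Rgcc (chr14:79301586-79301885, minus strand): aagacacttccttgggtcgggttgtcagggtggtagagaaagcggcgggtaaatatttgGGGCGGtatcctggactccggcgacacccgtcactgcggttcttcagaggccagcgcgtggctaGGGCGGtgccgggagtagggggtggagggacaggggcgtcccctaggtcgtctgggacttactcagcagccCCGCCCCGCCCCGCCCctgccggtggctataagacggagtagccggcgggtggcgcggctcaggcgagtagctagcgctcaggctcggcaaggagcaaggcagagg

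The Cdkn1a window, at the upstream of its 2 annotated starts, held 2 half-sites, 73 and 51 bases before the start. The window at its other start, not printed here, held 0 half-sites and 2 matches to GGGCGG, 104 and 46 bases before that start. Mdm2 held a half-site 186 bases and Gadd45a one 40 bases before the start. Gadd45b, Gadd45g and Rgcc held no match to the half-site in these windows. Gadd45b and Gadd45g each had a TATAAA, 46 and 27 bases before the start, and a CACGTG, and Rgcc had 5 matches to GGGCGG, 3 of which overlap each other. Of the 32 genes, 27 had a promoter entry, Trp53 and Fdxr among them, with 34 windows in all. A half-site lay in 10 of the 34 windows (29.4%), belonging to 9 genes, Trp53 included, against 8.36% of all 32851 windows of this length. Windows of 1 gene can overlap, and the single half-site of Aen was counted in both of its windows, so the 11 matches lie at 10 distinct places. The shares for the other letters were 14.7% against 13.6% for TATAAA, 17.6% against 7.15% for CACGTG and 73.5% against 35.7% for GGGCGG. No match overlapped a match of another motif. The list was made up in part of known p53 targets, so its share of half-sites is no independent result. The GC content of all windows was not computed, so the shares are not matched for it, and none was tested. A match describes the letters of a window and shows no binding.

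Of the 26 tested genes, Gadd45b was called higher and Rgcc lower in the FEAT clones, and the other 24 were not called. That is 7.69% of the members, where 0.225% of all 13315 genes tested were called with 1 probe per gene (0.135% higher and 0.0901% lower). Because the members were chosen with earlier results of these data known, the shares in this paragraph are descriptions and no test of the list. Counted by probe, 1 member probe was called higher and 1 lower of 50 tested, beside 0.184% of all probes tested (0.118% higher and 0.0663% lower). An unadjusted limma p under 0.05 was reached by 2 higher and 4 lower members, and by 10.1% of all genes tested (5.2% higher and 4.94% lower). The 3 FEAT clones lay wholly above the 3 control clones for Gadd45b, Plk3 and Aen, and wholly below them for Rgcc, Ddit4 and Trp53inp1. These 6 genes are 23.1% of the members, beside 15.2% of all genes tested (7.95% higher and 7.24% lower). The log2 difference was negative for 18 of the 26 members (69.2%, and 48.4% of all genes tested), with a median of -0.10 against 0.0071 over all genes tested. It was under 0.25 in size for 17 of the 26 (65.4%, and 78.1% of all genes tested). Without ΔccdB-2 the difference turned positive for Cdkn2c (0.0090), Ei24 (0.048) and Eda2r (0.084). The median over the members was then -0.04, and the values over all genes were not computed for that omission. Of the fibroblast markers given above, 8 of 10 had a positive log2 difference and none was called.

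**Figure D1:**
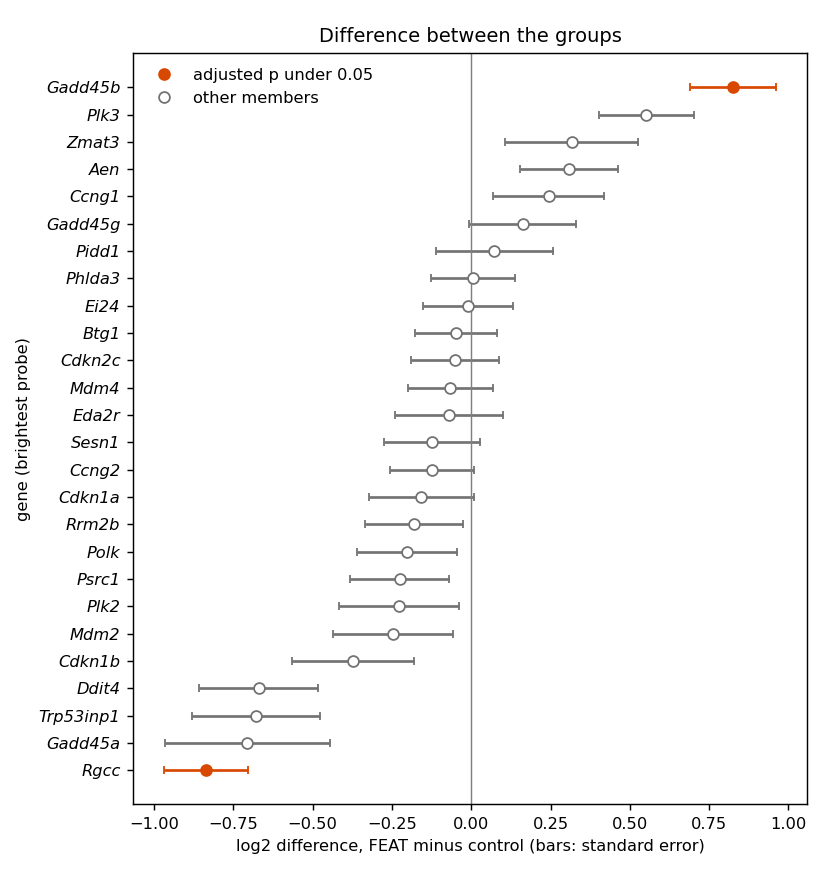
Log2 difference between the 3 FEAT and the 3 control clones for each of the 26 tested genes (x axis, FEAT minus control, bars show the standard error), ordered by size (y axis). Gadd45b at 0.83 and Rgcc at -0.84 are the filled points with an adjusted p under 0.05, and 17 of the 26 genes lie within 0.25 of 0.

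Of the 3 GADD45 genes, Gadd45b was called and Gadd45a and Gadd45g were not. Gadd45b, known to be induced by TGF-beta and NF-kB signals and to bind kinases of the p38 and JNK pathways, read 387, 377 and 378 in ΔccdB-1, ΔccdB-2 and ΔccdB-3, and 694, 593 and 679 in FEAT-3, FEAT-15 and FEAT-20. The control clones lay within 1.04-fold of each other on the normalized scale and every FEAT clone was above all of them. The deposited intensity went from 381 ± 5.78 to 656 ± 54.8 (mean ± SD, n = 3 per group). On the normalized scale the gene rose 1.77-fold, a log2 difference of 0.83 with an SE of 0.14 (limma, adjusted p = 0.0425). Its other probe read 121, 117 and 104 in the control clones and 166, 159 and 151 in the FEAT clones, again without overlap, but its log2 difference of 0.69 was not called (limma, adjusted p = 0.109). The call of the brighter probe was lost without the filter on dim probes (limma, adjusted p = 0.0520), with the mean of both probes (0.0589), and without ΔccdB-1, ΔccdB-3, FEAT-3 or FEAT-20 (0.2496, 0.168, 0.187 and 0.0921).

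Gadd45a, the family member known to carry a p53 site in an intron, read 1918, 3035 and 1801 in the control clones and 1878, 999.6 and 1417 in the FEAT clones. ΔccdB-2 was the highest of the 6 and FEAT-15 the lowest, while FEAT-3 lay close to ΔccdB-1 and ΔccdB-3, so the groups overlapped. The log2 difference of -0.71 had an SE of 0.26 and was not called (limma, adjusted p = 0.424). It was -0.46 without ΔccdB-2 and -0.45 without FEAT-15. The other probe gave the same order of clones at both ends, with 2375 in ΔccdB-2 and 815 in FEAT-15, and a log2 difference of -0.63.

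Gadd45g, the family member linked to cytokine signals and growth arrest, read 2719, 2554 and 2577 in the control clones, a range of 1.06-fold. In FEAT-3 and FEAT-15 it read 3347 and 3304, above all control clones, and in FEAT-20 it read 2333, below all of them. The log2 difference of 0.16 (SE 0.17) was not called (limma, adjusted p = 0.826). Its other probe read 1019.6, 722 and 600.1 in FEAT-3, FEAT-15 and FEAT-20, with FEAT-20 again lowest, next to ΔccdB-3 at 601. The spread of Gadd45g lay among the FEAT clones (1.55-fold) and that of Gadd45a in both groups (1.71-fold and 2.04-fold).

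**Figure D2:**
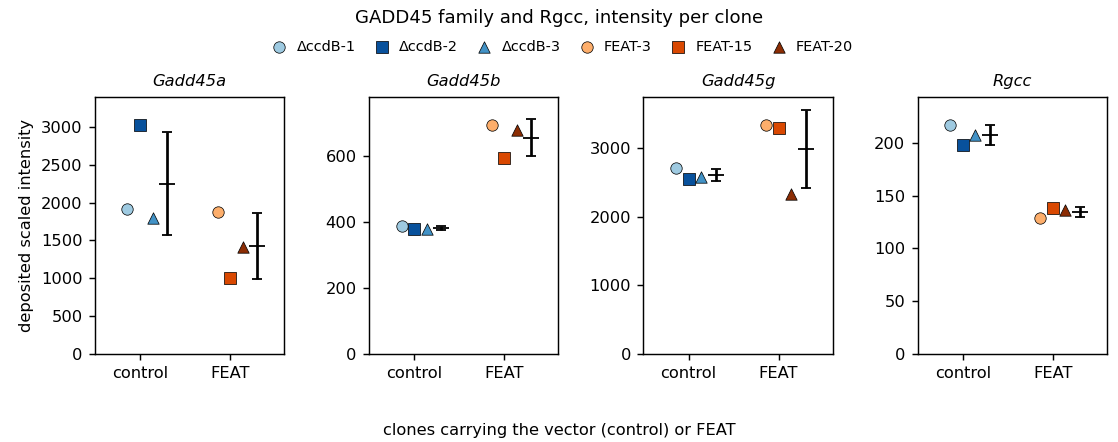
Deposited scaled intensity (y axes, each from 0) of Gadd45a, Gadd45b, Gadd45g and Rgcc in the control and FEAT clones (x axes). Points are clones and the bars beside them mean ± SD of 3 clones. Gadd45b and Rgcc show no overlap between the groups, Gadd45a has ΔccdB-2 at 3035 above all others, and Gadd45g has FEAT-20 at 2333 below all others.

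Rgcc, a regulator of the cell cycle that binds CDK1 and is induced by complement and TGF-beta, was the called gene in the other direction. It read 217, 198 and 208 in ΔccdB-1, ΔccdB-2 and ΔccdB-3 and 129, 138 and 137 in FEAT-3, FEAT-15 and FEAT-20. Both groups were narrow, with 1.14-fold between the control clones and 1.16-fold between the FEAT clones, and they did not overlap. The deposited intensity went from 208 ± 9.52 to 135 ± 4.76 (mean ± SD, n = 3 clones each). On the normalized log2 scale the gene fell by 0.84 (SE 0.13, 1.79-fold, limma, adjusted p = 0.0370). Rgcc had 1 probe and is not far above background, and without background correction the log2 difference was -0.63. The call was kept in all 8 scaling, filter, probe and variance settings. It was lost on leaving out any clone other than ΔccdB-2 (limma, adjusted p 0.0569 to 0.260). In most of these omissions fewer probes were called over the whole array as well.

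The antiproliferative BTG genes gave little contrast. Btg1, whose product recruits the CCR4-NOT deadenylase, read 9519, 9092 and 8941 in the control clones and 9409, 8979 and 8352 in the FEAT clones. The 6 clones lay within a narrow band and the log2 difference was -0.05 (SE 0.13), with -0.01 on the other probe. Btg2, a p53 target of the same family, was below the background limit throughout.

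The feedback arm of the p53 loop varied mainly among the control clones. Mdm2, the ubiquitin ligase for p53 and itself a p53 target, read 4061, 7021 and 5726 in ΔccdB-1, ΔccdB-2 and ΔccdB-3, and 4807, 4499 and 4705 in FEAT-3, FEAT-15 and FEAT-20. All 3 FEAT clones lay inside the control range, which was 1.76-fold, and they lay within 1.14-fold of each other. The log2 difference was -0.25 (SE 0.19, limma, adjusted p = 0.746), and -0.06 without ΔccdB-2. Another bright probe of Mdm2 read 3185, 7209.8 and 4469 in the control clones, with ΔccdB-2 again highest, and the remaining probe stayed below the background limit. Mdm4, a relative of Mdm2 that holds p53 inactive, read 136 to 157 over the 6 clones on its only probe above background (log2 difference -0.07, SE 0.13).

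Cyclin G genes code for p53-linked regulators of the phosphatase PP2A. Ccng1, a p53 target, read 5175, 7837 and 5248 in the control clones and 7260.3, 6906 and 6946 in the FEAT clones. The FEAT clones were alike and lay between ΔccdB-2 above and the other control clones below. The log2 difference was 0.24 (SE 0.17, limma, adjusted p = 0.727), and 0.45 without ΔccdB-2 (0.270), where the groups no longer overlapped. The other probes of Ccng1 gave 0.08 and 0.01, and both had ΔccdB-2 as the highest clone. Ccng2, its relative and a known FoxO target, was below the background limit and gave -0.12 (SE 0.13).

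Inhibitors of cyclin-dependent kinases were not called. Cdkn1a, which encodes p21 and is the main effector of p53-driven arrest, read 6516, 9439 and 8019 in the control clones and 7396, 7463 and 6333 in the FEAT clones. ΔccdB-2 was highest and FEAT-20 lowest, and the groups overlapped. The log2 difference was -0.16 (SE 0.17, limma, adjusted p = 0.826), and -0.03 without ΔccdB-2. The other probes of Cdkn1a gave -0.34 and -0.35, with the same highest and lowest clone.

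Cdkn1b, which encodes p27 and is controlled by FoxO factors as well as by protein turnover, read 188, 224 and 151 in the control clones and 141, 145 and 174 in the FEAT clones. FEAT-3 and FEAT-15 were below every control clone and FEAT-20 was not (log2 difference -0.37, SE 0.19, limma, adjusted p = 0.606). The difference was -0.20 without ΔccdB-2. Another tested probe of Cdkn1b, above background on 1 control array alone, gave -0.07, and its last probe was too dim to be tested. Cdkn2c, which encodes p18 and inhibits CDK4 and CDK6, read 2763, 2793 and 2227 in the control clones and 2427, 2506 and 2661 in the FEAT clones, a log2 difference of -0.05 (SE 0.14). Its other probes gave 0.13 and -0.19. Cdkn1c, which encodes p57, was not above background.

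Among the genes of metabolic and stress control, Ddit4 was lower in every FEAT clone than in any control clone. Ddit4 encodes REDD1, an inhibitor of mTORC1 induced by p53, hypoxia, glucocorticoids and ATF4. It read 1471, 1643 and 1136 in ΔccdB-1, ΔccdB-2 and ΔccdB-3 and 1072, 774 and 922 in FEAT-3, FEAT-15 and FEAT-20. The gap between ΔccdB-3 and FEAT-3 was small beside the spread within each group, 1.48-fold and 1.51-fold. The log2 difference of -0.67 (SE 0.19) was not called (limma, adjusted p = 0.254). Sesn1, a sestrin that also restrains mTORC1, read 1165, 1279 and 1109 in the control clones and 997, 1014 and 1374 in the FEAT clones. FEAT-20 was the highest of the 6 clones and the other FEAT clones the lowest (log2 difference -0.12, SE 0.15), and the other probes gave 0.05 and -0.20. Tigar, which lowers glycolytic flux, was not above background.

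Effectors of p53 in cell death and autophagy gave differences of both signs, none called. Trp53inp1, a stress-induced cofactor of p53, read 683, 1100.3 and 670 in the control clones and 498, 605 and 470 in the FEAT clones. ΔccdB-2 stood well above the rest, and all FEAT clones lay below all control clones. The log2 difference was -0.68 (SE 0.20, limma, adjusted p = 0.299), and -0.43 without ΔccdB-2, still without overlap. Its other probe read 147, 187 and 144 in the control clones and 117, 145 and 114 in the FEAT clones, with FEAT-15 above ΔccdB-3, and gave -0.50.

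Aen, a nuclease induced by p53 that takes part in apoptosis, read 156, 184 and 178 in the control clones and 232, 194 and 187 in the FEAT clones. FEAT-20 lay barely above ΔccdB-2, and the log2 difference of 0.31 (SE 0.15) was not called (limma, adjusted p = 0.590). The other probes gave 0.23 and 0.16. Zmat3, an RNA-binding p53 target, read 1180.3, 2024 and 1909 in the control clones and 2228, 2327 and 1814 in the FEAT clones. ΔccdB-1 was low among the controls and set the group difference of 0.32 (SE 0.21), which was 0.07 without that clone.

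The remaining death-related members differed little between the groups on their brightest probe, by the log2 values given in brackets. Phlda3, which blocks AKT at the membrane, read 8862 to 10864 over the 6 clones (0.01), and Ei24, an endoplasmic reticulum protein, read 2524 to 3199 (-0.01). Pidd1, the scaffold of the caspase-2 complex, read 202, 287 and 226 in the control clones and 258, 279 and 205 in the FEAT clones (0.07). ΔccdB-2 was highest for Pidd1, as it was for Eda2r, a receptor of the TNF receptor family, which read 108, 141 and 117 against 129, 121 and 103 (-0.07). Perp, a membrane protein of desmosomes and apoptosis, was not above background.

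The Polo-like kinases Plk2 and Plk3, both stress and growth factor responsive, gave differences of opposite sign, neither called. Plk3 read 432, 373 and 506 in the control clones and 618, 654 and 606 in the FEAT clones. No FEAT clone overlapped the controls, and the log2 difference was 0.55 (SE 0.15, limma, adjusted p = 0.243). Plk2 read 2249, 2966 and 2060.5 in the control clones and 1993, 1732 and 2654 in the FEAT clones, with ΔccdB-2 highest, FEAT-15 lowest and a log2 difference of -0.23 (SE 0.19). The genes of DNA synthesis, repair and mitosis gave log2 differences of -0.18 for Rrm2b, the p53-induced ribonucleotide reductase subunit, -0.20 for Polk, a translesion polymerase, and -0.23 for Psrc1, a spindle-associated protein. Their SEs were 0.16 each and none was called. Over the 6 clones Rrm2b read 476 to 657, Polk 388 to 532 and Psrc1 152 to 224, with FEAT-20 lowest for each.

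The plot of every clone against the control mean shows one pattern across these genes that is not a difference between the groups. ΔccdB-2 had the highest level of the 6 clones for 14 of the 25 members above background on all arrays (56.0%), against 17.2% of all 8517 genes above background. The 14 were Cdkn1a, Cdkn1b, Cdkn2c, Mdm2, Mdm4, Ccng1, Gadd45a, Trp53inp1, Plk2, Rrm2b, Ddit4, Pidd1, Eda2r and Psrc1. For some the lead was slight on the normalized log2 scale. Mdm4 was 6.85 in ΔccdB-2 and 6.82 in FEAT-20, and Cdkn2c was 11.44 in ΔccdB-2 and 11.42 in ΔccdB-1. Among the control clones alone ΔccdB-2 was highest for 19 of the 25 (76.0%), against 34.4% of all genes. The pattern was picked out after the values were seen and is given as a description, with no test.

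**Figure D3:**
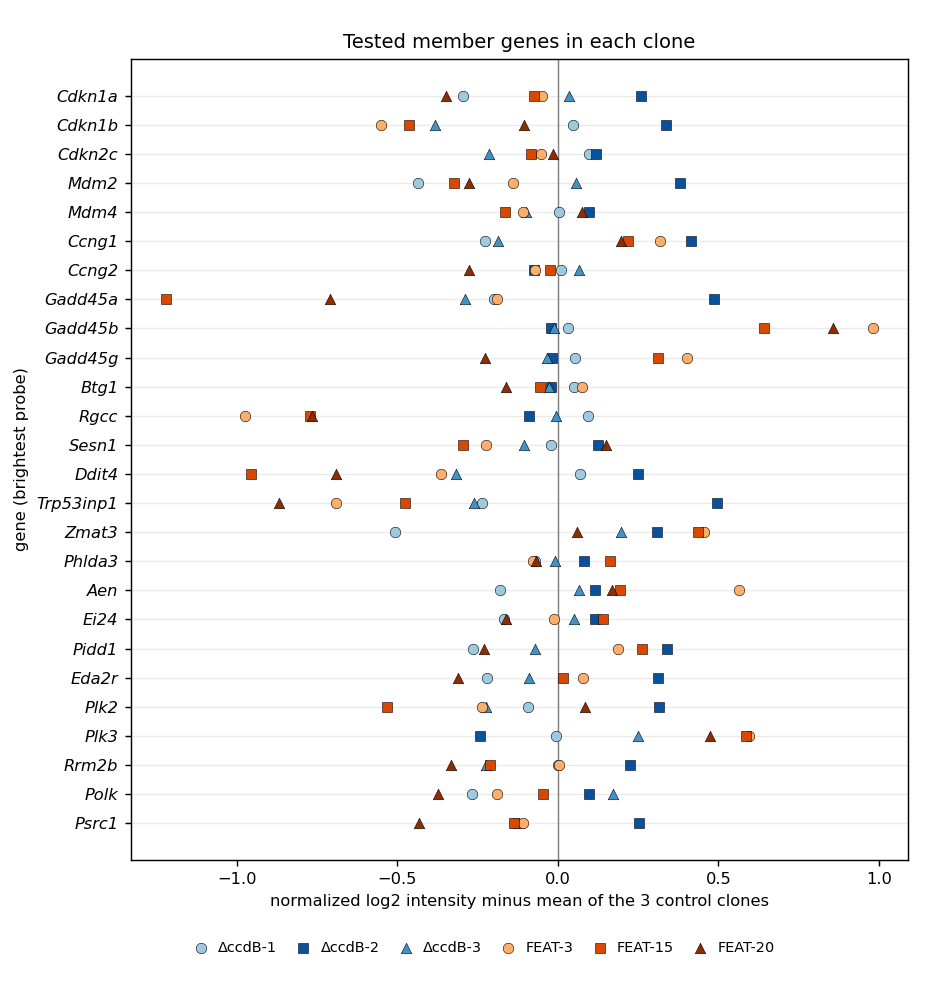
Normalized log2 intensity of each of the 26 tested genes (y axis, brightest probe, ordered by role) in each clone, minus the mean of the 3 control clones (x axis). Blue symbols are control clones and orange or brown symbols FEAT clones. The dark blue squares of ΔccdB-2 are the rightmost symbol for 14 genes, while Gadd45b and Rgcc separate the groups with the control clones close together.

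The size of this offset differed between members. ΔccdB-2 exceeded the mean of the other control clones by 0.74 on the log2 scale for Trp53inp1, 0.73 for Gadd45a, 0.62 for Ccng1, 0.57 for Mdm2, 0.51 for both Cdkn1b and Pidd1, 0.47 for both Plk2 and Eda2r, 0.46 for Zmat3 and 0.39 for Cdkn1a. For Zmat3 the other control clones were unlike, with 10.18 in ΔccdB-1 and 10.88 in ΔccdB-3, close to the 10.99 of ΔccdB-2. The offset of Trp53inp1 was larger than that of 98.6% of all genes above background. The median over the 25 members was 0.34, against 0.0047 over all genes. For 5 members ΔccdB-2 was below the mean of the other control clones: Plk3 by 0.36, Rgcc by 0.13, and Btg1, Gadd45b and Gadd45g by about 0.03. Of the 43 member probes above background on all control arrays, 32 had ΔccdB-2 as the highest control clone. Among the 13 members with several such probes, all probes named the same highest control clone for 9, which was ΔccdB-2 for 7, and the probes of Cdkn2c, Btg1, Sesn1 and Phlda3 named different ones.

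**Figure D4:**
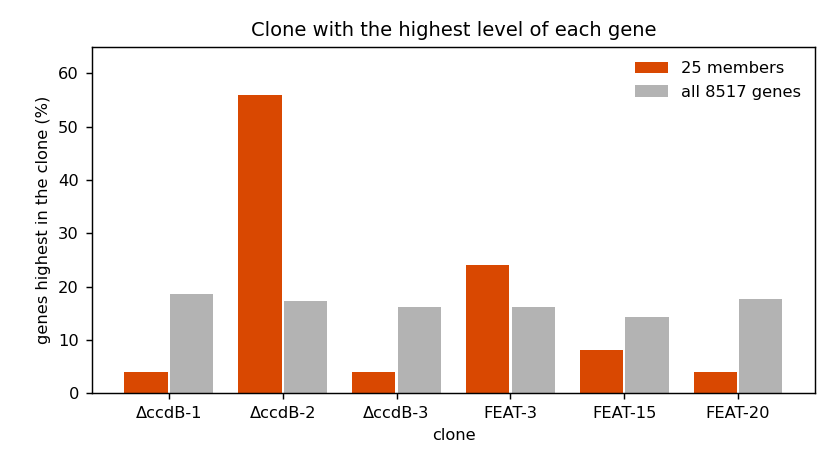
Share of genes (y axis, percent) whose highest level among the 6 clones was in the clone named on the x axis, for 25 members and for all 8517 genes above background on every array. ΔccdB-2 holds 56.0% of the members and 17.2% of all genes, and FEAT-3 is next with 24.0% of the members.

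The count of 14 was the same without background correction, with the deposited value table and with cyclic loess in place of quantile normalization, and was 10 of 25, against 5.99% of all genes, with the array intensities before any scaling. The median SD of the control clones was 0.23 on the log2 scale over the 26 tested members and 0.17 over all genes tested. With 2 control clones remaining it was 0.092 over the members without ΔccdB-2, 0.197 without ΔccdB-1 and 0.203 without ΔccdB-3. ΔccdB-2 was picked out as the clone most often highest for these members, which itself lowers the SD without it. The median over all genes was not computed for these omissions. Among the FEAT clones the median SD was 0.17 over the members and 0.15 over all genes tested. Without ΔccdB-2 the median log2 difference over the members went from -0.10 to -0.04, and the groups did not overlap for 8 members (Ccng1 and Ccng2 in addition), beside 28% of all genes tested. Over the whole array, 158 probes were called without that clone and 50 with it.

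Set against the range of the control clones, the group difference was larger for 6 of the 26 members (23.1%, and 18.4% of all genes tested). These were Gadd45b, Gadd45g, Rgcc, Ddit4, Plk3 and Aen. For the brightest probe of Gadd45b the difference of 0.83 stood against a control range of 0.053, and for Rgcc -0.84 against 0.18. The other probe of Gadd45b had a wider control range, 0.36, and a difference of 0.69. For Mdm2, Zmat3, Gadd45a and Trp53inp1 the control range was 0.81, 0.81, 0.78 and 0.76 on the log2 scale.

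**Figure D5:**
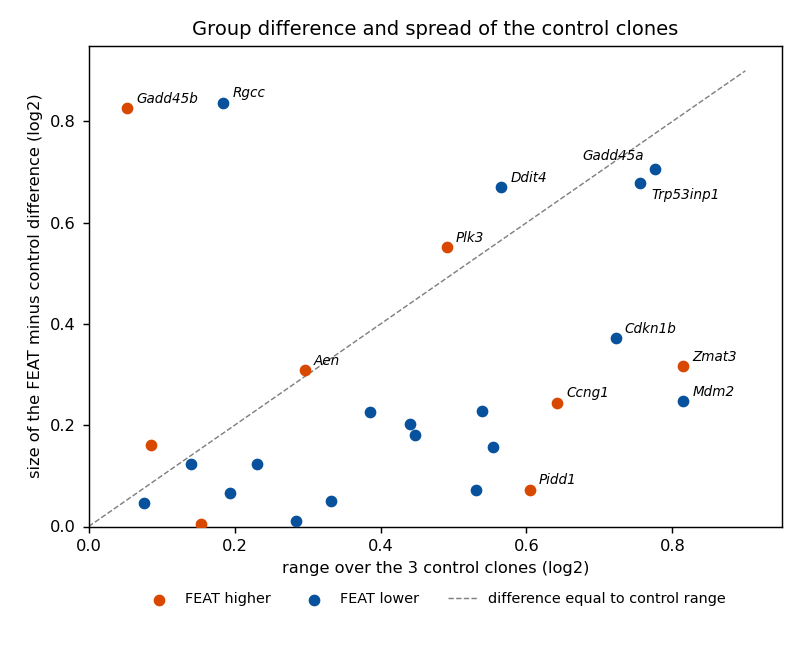
Size of the log2 difference between the groups (y axis) against the range of the 3 control clones (x axis, log2). Points are the brightest probes of the 26 tested genes, orange where FEAT clones were higher and blue where they were lower. Gadd45b and Rgcc lie far above the dashed line of equality, while Mdm2, Zmat3, Cdkn1b and Ccng1 lie well below it.

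Other genes of the network were read from lists that hold no member. Of all genes tested, 0.225% were called, 10.1% had an unadjusted limma p under 0.05 and 15.2% had no overlap between the groups. At that share of calls, lists of this size would mostly hold none. Of 28 further p53 targets with a tested probe, 0 were called higher and 1 lower, and the median log2 difference was -0.0067. The called gene was Steap3, a ferrireductase also known as TSAP6, which read 1296, 1369 and 1193 in the control clones and 662, 719 and 722 in the FEAT clones (log2 -0.95, SE 0.13, limma, adjusted p = 0.0195) on its brightest probe. Its 3 other probes, dim ones, gave -0.25, 0.11 and 0.09. The next by p were Dusp1, a phosphatase of MAP kinases, at -0.42, the DNA damage sensor Ddb2 at -0.31 and the BH3-only gene Bbc3, which encodes PUMA, at -0.31, none called.

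Of 20 tested regulators of p53 none was called (1 had an unadjusted limma p under 0.05), and the median was -0.01. Chek1, a checkpoint kinase, had no overlap between the groups, with 235, 235 and 218 in the control clones against 294, 268 and 277 in the FEAT clones (log2 0.34, SE 0.13, limma, adjusted p = 0.449). Of 14 tested GADD45 partners none was called (1 had an unadjusted limma p under 0.05). The list of that name also holds downstream kinases, such as Map2k6, and the genes Ddit3, Ppp1r15a and Ppp1r15b. Map2k6, the kinase that activates p38 downstream of the GADD45 partner MAP3K4, read 314, 298 and 411 in the control clones and 180.0, 257 and 190.4 in the FEAT clones. All FEAT clones were lower, by a log2 difference of -0.85 (SE 0.19, limma, adjusted p = 0.153), and its other probes gave -0.56 and -0.72. Of 16 tested cell cycle brakes and their targets none was called and none had an unadjusted limma p under 0.05, with Ccne2 at 0.28, Cdk4 at -0.23 and Cks1b, a dim probe, at -0.30.

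Of 14 tested growth arrest and BTG/TOB relatives none was called (2 had an unadjusted limma p under 0.05). Gas7, first found as a growth arrest-specific transcript, read 3365, 3389.8 and 3167 in the control clones and 1829, 3098 and 2136 in the FEAT clones. FEAT-3 and FEAT-20 lay far below the control clones and FEAT-15 just below them (log2 difference -0.56, SE 0.18, limma, adjusted p = 0.344). Tob1, an antiproliferative relative of Btg1, differed by -0.39 and was not called.

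Of 11 tested FoxO genes and targets none was called (5 had an unadjusted limma p under 0.05), with a median of 0.20. Irs2, the insulin receptor substrate that FoxO induces, read 299.5, 321 and 449.6 in the control clones and 612, 527 and 789.6 in the FEAT clones, without overlap (log2 0.91, SE 0.20, limma, adjusted p = 0.151). Txnip, an inhibitor of thioredoxin, differed by 0.59 and the muscle ubiquitin ligase gene Fbxo32 by -0.55, both without overlap. Of 10 tested proliferation genes none was called (1 had an unadjusted limma p under 0.05). Their log2 difference was positive for 9 of 10, with a median of 0.15 and Rrm2, a ribonucleotide reductase subunit, at 0.45. The groups did not overlap for 2 of 28 further p53 targets (7.14%), 1 of 20 p53 regulators (5%) and 2 of 14 GADD45 partners (14.3%). The counts were 2 of 16 cell cycle brakes and their targets (12.5%) and 3 of 14 growth arrest relatives (21.4%). They were 4 of 11 FoxO genes (36.4%) and 1 of 10 proliferation genes (10%). Over all genes tested, 15.2% had no overlap and 10.1% an unadjusted limma p under 0.05. None of the lists' medians or counts was tested as a set.

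The high place of ΔccdB-2 differed in extent between these lists. Among their genes above background on all arrays, it was the highest control clone for 11 of 14 growth arrest and BTG/TOB relatives (78.6%) and 12 of 21 further p53 targets (57.1%). It was so for 5 of 10 FoxO genes, 5 of 10 fibroblast markers and 6 of 13 GADD45 partners (46.2%). The counts were 5 of 13 cell cycle brakes and their targets (38.5%), 6 of 17 p53 regulators (35.3%) and 3 of 9 proliferation genes (33.3%). Over all genes the share was 34.4%. ΔccdB-2 was the highest of all 6 clones for 9 of the 14 growth arrest relatives and 6 of the 21 further p53 targets. The corresponding counts were 2 of 10 FoxO genes, 1 of 10 fibroblast markers and 4 of 13 GADD45 partners. They were 2 of 13 brakes and their targets, 3 of 17 regulators and 0 of 9 proliferation genes, beside 17.2% of all genes. By median offset of ΔccdB-2 from the mean of the other control clones, the order was another. It was 0.22 for FoxO genes, 0.19 for growth arrest relatives, 0.16 for further p53 targets and 0.12 for brakes and their targets. It was 0.086 for proliferation genes, 0.060 for GADD45 partners, 0.059 for p53 regulators and 0.054 for fibroblast markers, against 0.0047 for all genes. Sesn2, Sesn3 and Ercc5 are shared between lists. These counts and offsets were not tested.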

How the data were processed

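Total RNA of the 6 clones was extracted on RNeasy columns, amplified and labelled with the Illumina TotalPrep kit and hybridised to 1 array per clone, according to the protocols in the labels. The submitters' processing notes name BeadStudio, without a version. The authors deposited linear intensities per probe, with array means of 616 to 735 and background still included. The authors' value table held the same intensity values times 1 factor per array (0.925 to 1.10).

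With R 4.3.3 and limma 3.58.1, the signals were corrected by normexp (offset 16), quantile-normalized and put on a log2 scale. Detection p was planned for this step and for the filter. The tables used here hold none, so the top 60% of probes by mean were tested. lmFit and eBayes compared 3 FEAT with 3 control clones, two-sided, with Benjamini-Hochberg adjustment over 27169 probes. The brightest probe stood for a gene. Normexp widens differences between dim probes.

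The background limit, 3 SDs above the mode of an array's log2 intensities, with the SD taken from values under the mode, was chosen after seeing the data. Probes were named from GEO's platform annotation: 34885 had 1 gene, 18 several and 10378 none. Of the 32 members, 30 had a probe and 26 were tested. Of other lists, called genes and at most 3 more by smallest p were named. Vim, Col1a1, Lum and Cdkn2a were named as checks of the cell line. The members and lists were chosen with earlier results of these data known. Steps were tested on simulated data.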

Additional observations from a re-analysis of the deposited data

How the results depend on the processing

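The 8 alternatives were no background correction, the deposited value table, cyclic loess, no filter, a stricter filter (the top 40% of probes), trend with robust moderation, array weights and the mean of a gene's probes, and each clone was left out in turn. Of the 26 tested members, 20 kept their direction throughout and 2, Gadd45b and Rgcc, were called under any of them. Rgcc was called in 8 of 8 settings and 1 of 6 omissions, Gadd45b in 6 of 8 and 2 of 6. The 2 member probes called became 1 without the filter, where more probes share the adjustment, and ranged from 0 to 2 over the omissions. Calls over the whole array moved as well, from 50 to 0 without ΔccdB-1, 10 without ΔccdB-3, 18 without FEAT-3 and 42 without FEAT-15. They were 62 without FEAT-20 and 158 without ΔccdB-2. Ei24 changed sign with the value table (0.0010), array weights (0.015) and the mean of its probes (0.025). Over the omissions Ei24 ranged from -0.092 to 0.066, Phlda3 from -0.072 to 0.047, Pidd1 from -0.061 to 0.24, Eda2r from -0.18 to 0.084, Btg1 from -0.11 to 0.010 and Cdkn2c from -0.16 to 0.0090. The number of members without overlap was 6 in every setting and 6 to 12 over the omissions, where 2 clones are more easily separated. The share over all genes tested was 15.2% in the main fit and 28% without ΔccdB-2. It was not computed for the other settings and omissions, so their member counts have no comparison. The median log2 difference ranged from -0.13 to -0.04 and the median control SD from 0.092 to 0.23 over the omissions. No paired analysis was possible because the clone numbers 1, 2, 3 and 3, 15, 20 only name the clones. The slide of each array is not known here. With 3 arrays per group, the log2 differences of Gadd45a (-0.71), Trp53inp1 (-0.68) and Ddit4 (-0.67) did not reach the adjusted threshold.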
